A study of Mus musculus with 6 samples.

Results

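The Toll-like receptors are 10 genes of the deposited count table, chosen by gene name out of 57010 genes: Tlr1, Tlr2, Tlr4, Tlr5 and Tlr6, whose products sit mainly at the cell surface, and Tlr3, Tlr7, Tlr8, Tlr9 and Tlr13, whose products work in endosomes. All 10 were among the 14799 genes that had enough counts to be tested. RNA-seq was performed on 6 libraries of primary neonatal mouse cardiomyocytes (NMCMs), isolated from newborn C57BL/6 hearts by enzymatic digestion and parted from fibroblasts by their slower adhesion. All were kept under hypoxia (HO), 3 with vehicle (HO + Vehicle, V1, V2 and V3) and 3 with β-SITO (HO + β-SITO, T4, T5 and T6). β-SITO is β-sitosterol, a plant sterol. No normoxic library was used here, both groups share the hypoxia, and the dose and the time for these libraries are not given in the sources used here. The comparison answers which receptor transcripts differed between hypoxic NMCMs with and without β-SITO. The labels do not say whether the 3 libraries of a group come from separate isolations, so the p-values measure the spread between these libraries, which may be technical. The names of the HO + β-SITO libraries carry a suffix that the others lack, so a difference in preparation and the treatment cannot be told apart.

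Toll-like receptors recognise conserved parts of microbes and molecules released from damaged cells, through an array of leucine-rich repeats outside the cytosol. A Toll/interleukin-1 receptor domain on the cytosolic side then recruits adaptors, MyD88 for most family members and TRIF for TLR3 and, from endosomes, TLR4, and these lead to NF-κB and interferon regulatory factors. The surface receptors sense lipopeptides, lipopolysaccharide and flagellin, and the endosomal receptors sense nucleic acids. In the heart the receptors are found on resident macrophages and, at lower levels, on muscle, stromal and endothelial cells, and TLR2 and TLR4 have been studied for their part in ischaemic injury.

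Libraries held between 16694734 and 18460522 counts, and library sizes of the groups overlapped. Expression is given as CPM, TMM-normalized counts scaled to the size of each library, and differences were tested with the quasi-likelihood test of edgeR. A differentially expressed gene (DEG) had an adjusted p under 0.05 over all tested genes and a change of more than 2-fold. Cardiomyocyte markers were abundant in all libraries (summed over 10 genes, 5816 to 6732 CPM in HO + Vehicle and 4855 to 7926 CPM in HO + β-SITO). Their members did not change alike, with Myh7 (log2 fold change 1.61) the 1 DEG higher and 0 DEGs lower. Without the fold cutoff 2 were higher, Myh7 and Myh6 (0.53), and 2 lower, Tnnt2 (-0.47) and Pln (-0.42), against 33.0% and 33.8% of all tested genes. Markers of other cells were present too. The DEG counts of the marker lists are to be set beside the 12.8% of all tested genes that were DEGs higher and the 10.1% that were DEGs lower. The 13 macrophage markers summed to 1322 to 1442 CPM against 2970 to 3647 CPM, with 9 DEGs higher and none at 0. Fcgr1 (log2 fold change -2.18) was the 1 DEG lower, and Adgre1 (-0.06) and Ptprc (-0.03) had overlapping groups. The 7 fibroblast markers summed to 29590 to 30880 CPM against 43950 to 45000 CPM, a sum carried by the collagens Col1a1, Col1a2 and Col3a1. None of the 7 was a DEG with edgeR. Without the fold cutoff 4 were higher and 2 lower, Dcn (log2 fold change -0.52) and Postn (-0.22), against 33.0% and 33.8% of all tested genes. The 5 smooth muscle and pericyte markers summed to 1080 to 1164 CPM against 1863 to 2102 CPM, with 3 DEGs higher. The 6 endothelial markers summed to 178 to 206 CPM against 706 to 746 CPM, and all 6 were DEGs higher (median log2 fold change 1.88). Markers of neutrophils, dendritic cells and T cells were sparse. The 7 neutrophil markers summed to 16.6 to 18.2 CPM against 3.94 to 5.55 CPM, with Ly6g at 0 in every library, and the 2 that could be tested, Csf3r (log2 fold change -2.08) and Camp (-3.79), were DEGs lower. Dendritic cell markers summed to 11.6 to 13.0 CPM against 13.2 to 15.2 CPM, with Cd209a and Siglech at 0. Of the 2 that could be tested, Clec9a (log2 fold change 2.48, on few counts) was a DEG higher and Zbtb46 (0.11) was not a DEG. T cell markers summed to 0.186 to 0.690 CPM against 1.90 to 2.19 CPM, with Cd3d and Cd3e at 0. Only Cd4 could be tested, and it was a DEG higher (log2 fold change 2.28) on few counts. In these bulk libraries fewer cells of a type and less RNA per cell cannot be told apart, and the part of the cell mixture in the results below was not tested.

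The receptors did not change as a group. In the HO + β-SITO libraries Tlr2, Tlr3, Tlr1 and Tlr6 fell and were DEGs, Tlr13 and Tlr5 rose and were DEGs, Tlr7 and Tlr8 rose by less than 2-fold, and Tlr4 and Tlr9 did not pass the test. The 4 DEGs that were lower are 4 of 10 receptors, where 10.1% of all tested genes were DEGs lower, and the 2 that were higher compare with 12.8% of all tested genes (6 of 10 against 22.8% in either direction). Without the fold cutoff the adjusted p was under 0.05 in 8 receptors against 66.8% of tested genes, 4 of them lower against 33.8% and 4 higher against 33.0%. In 9 of 10 receptors, Tlr4 being the exception, the values of one group lay wholly apart from those of the other, where 70.5% of tested genes did so (35.8% lower and 34.8% higher). The place of the receptor in the cell did not fully divide the directions. Tlr5 was the only surface receptor with a positive change and Tlr3 the only endosomal receptor with a negative one. Among the 5 surface receptors 3 were DEGs lower and 1 was a DEG higher, and the median log2 fold change was -1.83. Among the 5 endosomal receptors 1 was a DEG lower and 1 a DEG higher, with a median of 0.59, while the median over all tested genes was -0.0073. The same 6 receptors were DEGs in the same direction under every alternative test, normalization and low-count filter and in every fit that dropped a library, and without the fold cutoff Tlr7 and Tlr8 joined them.

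**Figure D1:**
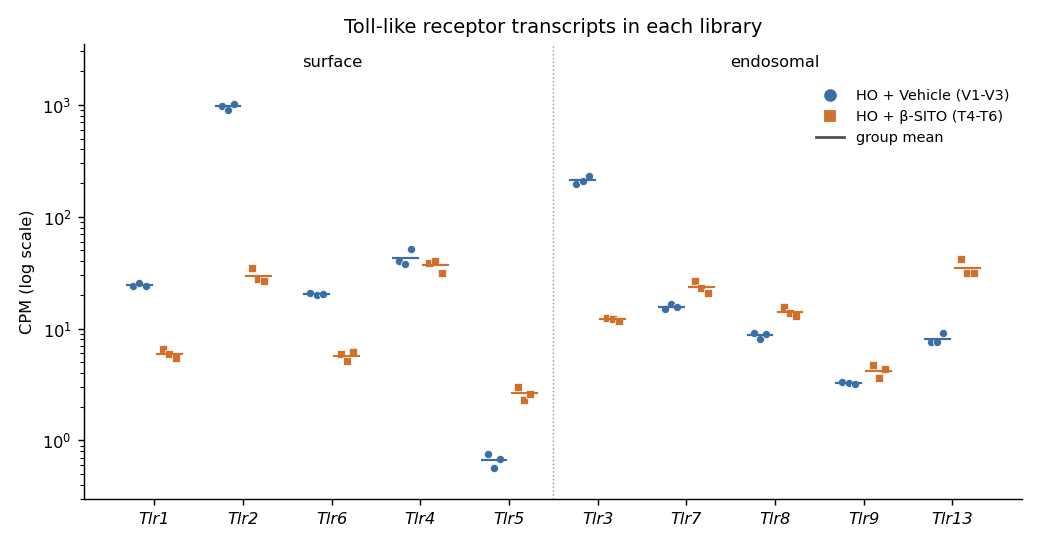
CPM of each Toll-like receptor gene on a log scale, with a point for each library (circles HO + Vehicle, squares HO + β-SITO) and a line at each group mean. Tlr2 and Tlr3 stand far above the other receptors in HO + Vehicle and drop to 29.8 and 12.1 CPM in HO + β-SITO, while Tlr13 goes from 8.11 to 35.1 CPM.

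**Figure D2:**
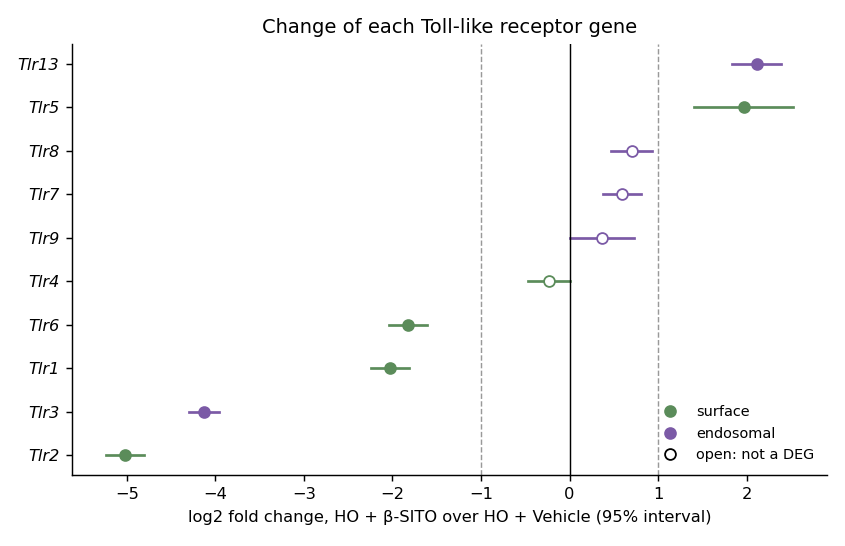
Log2 fold change of each receptor with its 95% interval, HO + β-SITO over HO + Vehicle. Filled points are DEGs, open points are not, dashed lines mark 2-fold, and surface (green) and endosomal (purple) receptors appear on both sides of 0.

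Promoter sequence was read for 8 of the 10 receptors from RefSeq (GRCm38.p6, a different build from that of the counts), as 10 windows from 250 bases before to 50 bases after an annotated start, Tlr1 and Tlr6 having a pair of windows each. Tlr4 and Tlr7 were not analysed here. Both strands were searched for the κB consensus, the core of the interferon-stimulated response element (ISRE, GAAA repeated after any 2 bases), AP-1 (TGANTCA) and PU.1 (GAGGAAGT). These letters are found in 8.46%, 3.44%, 7.81% and 3.2%, respectively, of all 32851 windows of the table. The κB consensus was found in Tlr2 and Tlr3, the ISRE core in Tlr6, PU.1 in Tlr1 and Tlr9, and AP-1 in Tlr9. For Tlr6 and for Tlr1 the matches lay in 1 of the 2 windows of the gene. The stretches of 30 bases around the matches in the 4 receptors that fell are shown so that the letters can be read. They run 5′ to 3′ on the strand of the gene, with the match in capitals. The stretches of Tlr9, which did not fall, are not shown. In Tlr2 the first stretch holds overlapping matches that begin 173 bases before the start, and in Tlr6 a pair of ISRE matches on the opposite strand overlap.
Tlr2, κB, chr3:83841762-83841791, minus strand: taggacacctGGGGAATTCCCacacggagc
Tlr2, κB, chr3:83841597-83841626, minus strand: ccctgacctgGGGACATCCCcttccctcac
Tlr3, κB, chr8:45410572-45410601, minus strand: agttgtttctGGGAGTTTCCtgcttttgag
Tlr6, ISRE core, chr5:64959260-64959289, minus strand: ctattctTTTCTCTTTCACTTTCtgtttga
Tlr1, PU.1, chr5:64933563-64933592, minus strand: attaaatgttgGAGGAAGTaggagcttgaa
The matches are letters in a window, and binding was not measured. None of the 4 motifs was found in the windows of Tlr5, Tlr8 or Tlr13, which says only that these letters are not in these windows.

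Tlr2 encodes the shared partner of the lipopeptide receptors, and its transcript was the most abundant of the 10 in HO + Vehicle and fell most. In HO + β-SITO its mean CPM was below those of Tlr4 and Tlr13. It lies on chromosome 3 from 83743579 to 83749074 on the minus strand (GRCm39, the build named in the submitters' notes). The HO + Vehicle libraries held 984, 907 and 1016 CPM of Tlr2 and the HO + β-SITO libraries 34.9, 27.9 and 26.6 CPM. Every HO + β-SITO library was thus far below every HO + Vehicle library. The mean went from 969 ± 55.8 to 29.8 ± 4.49 CPM (SD, n = 3), a 32.5-fold decrease (95% interval 28.1 to 37.6) with a log2 fold change of -5.02 ± 0.0981 (SE) and an adjusted p of 9.36e-16. Of all 14799 tested genes, 203 fell further. These values rest on at least 496 counts in each library.

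TLR1 and TLR6 each pair with TLR2, TLR1 for triacylated and TLR6 for diacylated lipopeptides. Their genes are neighbours on chromosome 5, on the same strand and 18467 bases apart, Tlr1 from 65082022 to 65090906 and Tlr6 from 65109374 to 65117440. Tlr1 had 23.9, 25.5 and 23.9 CPM in HO + Vehicle and 6.53, 5.96 and 5.47 CPM in HO + β-SITO, and the groups did not overlap. Its log2 fold change was -2.03 ± 0.0987 (SE, adjusted p = 5.99e-11), a 4.08-fold decrease. Tlr6 had 20.8, 19.9 and 20.5 CPM in HO + Vehicle and 5.91, 5.17 and 6.14 CPM in HO + β-SITO, also without overlap. Its log2 fold change was -1.83 ± 0.102 (SE, adjusted p = 3.10e-10), and its 95% interval of -2.04 to -1.61 overlapped that of Tlr1, -2.24 to -1.82. The proteins are close relatives and reads could be shared where their transcripts are alike, so the division of counts between the genes is less certain than their sum.

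The transcripts of Tlr1 and Tlr6 fell less than that of Tlr2. Within each library, and so without any scaling between libraries, Tlr2 per length was 45.8, 39.5 and 47.3 times Tlr1 in HO + Vehicle and 5.94, 5.20 and 5.40 times in HO + β-SITO. Against Tlr6 it was 58.4, 56.5 and 61.2 times in HO + Vehicle and 7.31, 6.67 and 5.36 times in HO + β-SITO. The ratio of Tlr1 to Tlr6 per length, 1.33 ± 0.0839 against 1.17 ± 0.156 (SD, n = 3), overlapped between the groups. Cd36, which encodes a scavenger receptor that can hand ligands to TLR2 and TLR6, went the other way, from 59.5 ± 2.92 to 104 ± 8.67 CPM (SD, n = 3, log2 fold change 0.81, adjusted p = 6.59e-08), by less than 2-fold.

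Tlr3, whose product senses double-stranded RNA and signals through TRIF, was the second most abundant receptor in HO + Vehicle and the only endosomal receptor of the 5 that fell. It lies on chromosome 8 from 45848702 to 45864117 on the minus strand. The libraries held 195, 208 and 230 CPM in HO + Vehicle and 12.4, 12.1 and 11.7 CPM in HO + β-SITO. The values within each group lay close together and far from those of the other group. Tlr3 went from 211 ± 17.4 to 12.1 ± 0.392 CPM (SD, n = 3), a 17.4-fold decrease (95% interval 15.5 to 19.6) with a log2 fold change of -4.12 ± 0.0799 (SE, adjusted p = 8.73e-16). Ticam1, which encodes TRIF, the adaptor of TLR3, had 21.8 ± 1.31 CPM against 25.4 ± 0.965 CPM (SD, n = 3, log2 fold change 0.22, adjusted p = 0.0229).

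Tlr4, the receptor for lipopolysaccharide, was the exception among the 10. It lies on chromosome 4 from 66745821 to 66848521 on the plus strand. Its libraries held 39.8, 37.8 and 51.3 CPM in HO + Vehicle and 38.4, 40.0 and 31.5 CPM in HO + β-SITO. V3 was the highest and T6 the lowest, and the other 4 libraries were within 37.8 and 40.0 CPM whatever their group. The log2 fold change of -0.23 ± 0.111 (SE) had a 95% interval of -0.47 to 0.0071, so a decrease of up to 1.38-fold lies within it. The adjusted p was 0.0801 and ranged from 0.0164 to 0.636 across alternatives (1 against a 2-fold change with glmTreat), passing 0.05 with no low-count filter, without V2 and without T4, and the log2 fold change was -0.06 without V3 and -0.12 without T6. The table lists an overlapping lncRNA on the same strand, which it describes as sense intronic to Tlr4. Its summed counts, not scaled for library size, were 501 in HO + Vehicle and 508 in HO + β-SITO. Its fitted log2 fold change was -0.22, and it was not a DEG.

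Transcripts for proteins that present lipopolysaccharide to TLR4 fell. Cd14, the co-receptor, fell from 93.2 ± 3.15 to 31.7 ± 1.77 CPM (SD, n = 3, log2 fold change -1.56, adjusted p = 1.07e-11). Ly96, which encodes MD-2, the subunit that binds lipopolysaccharide on TLR4, fell from 18.4 ± 2.38 to 5.06 ± 0.698 CPM (SD, n = 3, log2 fold change -1.86, adjusted p = 5.05e-09). Lbp, which encodes the lipopolysaccharide-binding protein, had the largest decrease of the accessory genes, from 196 ± 9.87 to 34.4 ± 1.04 CPM (SD, n = 3; log2 fold change -2.51, adjusted p = 2.13e-14). Tirap, the sorting adaptor that brings MyD88 to TLR2 and TLR4, had a log2 fold change of -0.34 (adjusted p = 0.00413).

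Tlr5, the flagellin receptor, was the rarest of the 10 in both groups and rose. It lies on chromosome 1 from 182782353 to 182804010 on the plus strand. It had 12, 9 and 11 counts in HO + Vehicle and 58, 41 and 50 counts in HO + β-SITO, which come to 0.758, 0.564 and 0.682 CPM against 2.98, 2.30 and 2.60 CPM. The groups did not overlap, although the counts were few. The increase was 3.91-fold with a wide 95% interval of 2.66 to 5.76 (log2 fold change 1.97 ± 0.261 (SE), adjusted p = 7.75e-06).

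Tlr13, a mouse receptor for bacterial ribosomal RNA, had the largest increase. It lies on the X chromosome from 105186810 to 105204099 on the plus strand. The libraries held 7.64, 7.52 and 9.17 CPM in HO + Vehicle and 42.3, 31.4 and 31.6 CPM in HO + β-SITO. T4 was the highest, and each HO + β-SITO library was well above each HO + Vehicle library. Tlr13 went from 8.11 ± 0.920 to 35.1 ± 6.23 CPM (SD, n = 3), a 4.33-fold increase (95% interval 3.57 to 5.24) with a log2 fold change of 2.11 ± 0.129 (SE, adjusted p = 9.58e-10), and 1.96 without T4.

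Tlr7 and Tlr8, which sense single-stranded RNA and its breakdown products, are neighbours on the X chromosome, 40599 bases apart on the minus strand, Tlr8 from 166025692 to 166047325 and Tlr7 from 166087925 to 166113554. Tlr7 had 14.8, 16.5 and 15.4 CPM in HO + Vehicle and 26.8, 22.9 and 20.9 CPM in HO + β-SITO. Tlr8 had 9.10, 8.15 and 8.86 CPM in HO + Vehicle and 15.6, 13.9 and 13.0 CPM in HO + β-SITO. Both genes were higher in each HO + β-SITO library than in any HO + Vehicle library, with T4 the highest. The log2 fold change was 0.59 ± 0.1002 (SE, adjusted p = 8.62e-05) for Tlr7 and 0.70 ± 0.108 (SE, adjusted p = 3.38e-05) for Tlr8, and both 95% intervals, 0.38 to 0.81 and 0.47 to 0.93, end below 2-fold. Per length the ratio of Tlr7 to Tlr8 was 1.58 ± 0.181 in HO + Vehicle and 1.46 ± 0.0482 in HO + β-SITO (SD, n = 3), with overlapping groups.

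Tlr9, the receptor for unmethylated CpG DNA, lies on chromosome 9 from 106099797 to 106104082 on the plus strand. It had 3.35, 3.26 and 3.22 CPM in HO + Vehicle and 4.73, 3.60 and 4.32 CPM in HO + β-SITO, from 52 to 92 counts per library. The groups did not overlap, but T5 lay close to the HO + Vehicle libraries. The log2 fold change of 0.37 ± 0.169 (SE) had a 95% interval of 0.0042 to 0.73 and an adjusted p of 0.0690. Across alternatives the adjusted p ranged from 0.0145 to 0.214 (1 with glmTreat), passing 0.05 with upper quartile normalization, with library size only and without T5. Tlr11 and Tlr12, the other Toll genes of the mouse, had at most 1 count in any library and were not tested.

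T4 was the highest of the HO + β-SITO libraries for 8 of the 10 receptors, all but Tlr4 and Tlr6. The share of all tested genes that were highest in T4 was not counted, so this may not be particular to the receptors. It also had the highest macrophage marker sum (3647 CPM, against 2991 in T5 and 2970 in T6) and the lowest cardiomyocyte marker sum (4855 CPM, against 7847 and 7926). The summed level of Tlr7, Tlr8, Tlr9 and Tlr13 was 89.5, 71.8 and 69.9 CPM in T4, T5 and T6 and 34.9 to 36.7 CPM in HO + Vehicle. Between the groups this sum and the macrophage marker sum were both higher in HO + β-SITO. The receptor sum had to be higher, since it holds only endosomal receptors with positive changes and leaves out Tlr3. With Tlr3 the endosomal sum was lower, 81.6 to 102 CPM against 230 to 266 CPM in HO + Vehicle, and Tlr1, Tlr2 and Tlr6 were lower too. The part of the macrophage markers in these values was not tested.

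Levels were compared between receptors per kilobase of exon, with exonic lengths from GENCODE vM21 matched by gene identifier for all 10 receptors. In HO + Vehicle the order was Tlr2 (322 ± 18.51 CPM per kilobase), Tlr3 (40.5 ± 3.35), Tlr4 (7.73 ± 1.31), Tlr1 (7.30 ± 0.284), Tlr6 (5.48 ± 0.133), Tlr7 (3.82 ± 0.212), Tlr8 (2.43 ± 0.138), Tlr13 (1.89 ± 0.214), Tlr9 (0.942 ± 0.0184) and Tlr5 (0.140 ± 0.0204; all SD, n = 3). Only Tlr4 and Tlr1 overlapped among neighbours in this order. In HO + β-SITO the order was Tlr2 (9.89 ± 1.49 CPM per kilobase), Tlr13 (8.16 ± 1.45), Tlr4 (6.60 ± 0.811), Tlr7 (5.77 ± 0.735), Tlr8 (3.95 ± 0.370), Tlr3 (2.32 ± 0.0753), Tlr1 (1.79 ± 0.159), Tlr6 (1.54 ± 0.136), Tlr9 (1.21 ± 0.165) and Tlr5 (0.549 ± 0.0707; all SD, n = 3). Here Tlr2 and Tlr13, Tlr4 and Tlr7, and Tlr1 and Tlr6 overlapped. Tlr2 thus kept the first place, but its lead over the next receptor went from 7.94 times to 1.21 times, and Tlr13 moved from the eighth place to the second.

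**Figure D3:**
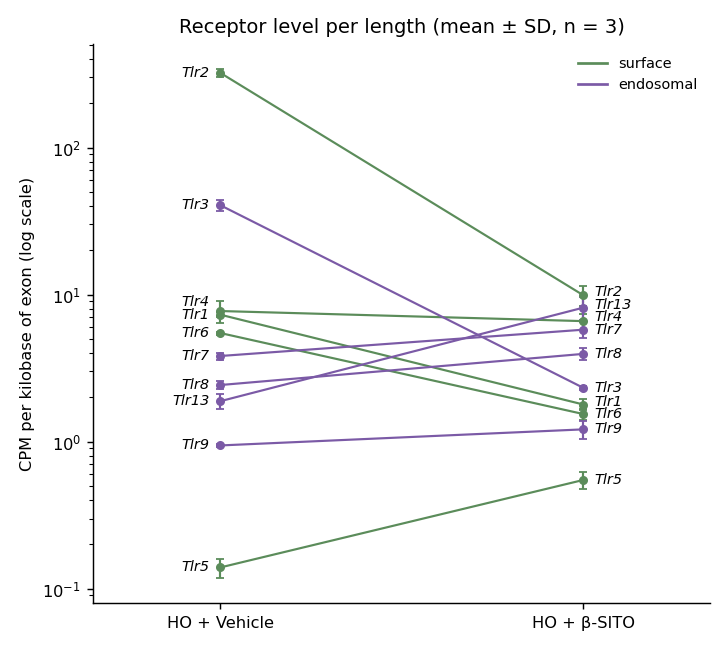
Mean level of each receptor per kilobase of exon (log scale) in both groups, with SD over 3 libraries as bars. The line of Tlr3 descends across those of Tlr4, Tlr13, Tlr7 and Tlr8, while that of Tlr2 descends but stays the highest, 1.21 times Tlr13 in HO + β-SITO.

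The receptors together held 0.118% to 0.130% of all counts in HO + Vehicle and 0.0162% to 0.0201% in HO + β-SITO. Their summed level went from 1304 ± 72.0 to 170 ± 18.8 CPM (SD, n = 3), and without Tlr2 from 335 ± 24.6 to 140 ± 14.4 CPM. Both parts fell, the surface sum from 1058 ± 61.4 to 80.8 ± 8.2 CPM and the endosomal sum from 247 ± 18.3 to 89.1 ± 11.1 CPM (SD, n = 3). Tlr2 made up 83.1%, 81.4% and 81.7% of the receptor counts per length in V1 to V3 and 24.6%, 23.0% and 23.3% in T4 to T6. The endosomal receptors, whose summed level fell less than that of the surface receptors, made up 11.8%, 13.2% and 12.9% in V1 to V3. In T4 to T6 they made up 51.9%, 50.05% and 51.7% of the smaller total. These shares are taken within a library and do not depend on the normalization between libraries. Tlr13 alone went from 0.480% ± 0.0331 to 19.4% ± 1.36 and Tlr7 from 0.979% ± 0.101 to 13.8% ± 0.246 (SD, n = 3), while Tlr3 went from 10.3% ± 0.704 to 5.59% ± 0.458. In the counts without regard to length the endosomal share was 18.9% ± 1.07 in HO + Vehicle and 52.4% ± 1.42 in HO + β-SITO (SD, n = 3). Leaving out Tlr2 and Tlr3, it was 28.8% ± 1.11 in HO + Vehicle and 60.1% ± 2.58 in HO + β-SITO. Without Tlr3 only endosomal receptors with positive changes remain, so the rise of this last share follows largely from that choice.

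**Figure D4:**
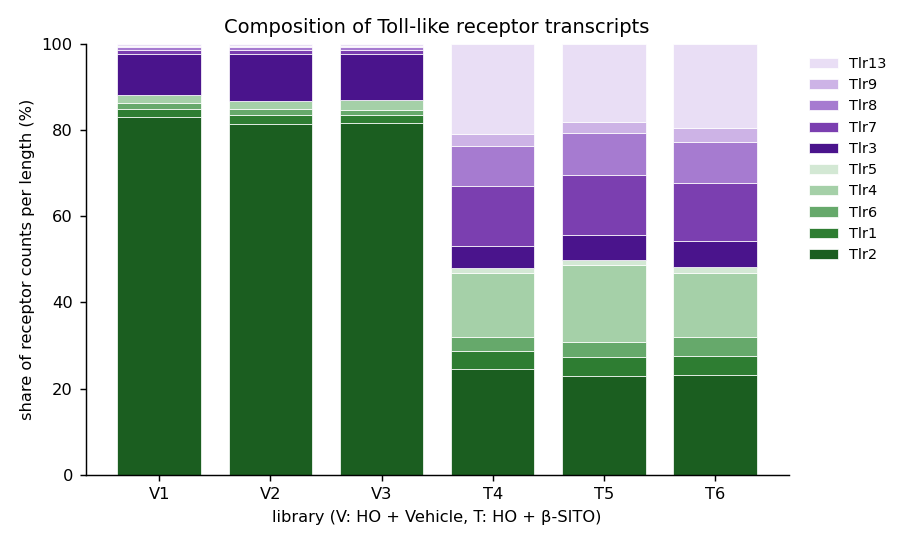
Share of each receptor in the receptor counts per length, stacked to 100% for each library, surface receptors in green and endosomal receptors in purple. Tlr2 fills 81.4% to 83.1% of the HO + Vehicle bars and 23.0% to 24.6% of the HO + β-SITO bars, where Tlr13, Tlr7, Tlr8 and Tlr4 take up much of the rest.

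The genes next to the receptors did not all move with them. Within 50 kb of Tlr1 and Tlr6, Fam114a1, which lies 9973 bases from Tlr6 on the opposite strand, had a log2 fold change of 0.02. Fam149a, 13373 bases from Tlr3 on the same strand, had -0.16. Gm7115, an unprocessed pseudogene 4052 bases from Tlr2 on the opposite strand, was a DEG lower (log2 fold change -3.30) on summed counts of 70 and 8. Its counts are uncertain, since the handling of reads that match several genes is not given in the sources used here. Prps2, 15763 bases from Tlr7 on the same strand, had a log2 fold change of 0.81, and Tmsb4x, 33380 bases from Tlr8, had 0.39. Near Tlr13, Atp7a had -0.09, Taf9b -0.30 and Pgk1 -0.65. Near Tlr9, itself at 0.37, Twf2 had 0.36, Ppm1m 0.41, Wdr82 0.23 and Alas1 -0.21.

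For each receptor that was a DEG, the tested genes with the most alike profile were found by the distance between log2 CPM values over the 6 libraries, centred on the mean of each gene. The nearest to Tlr2 was Slfn8 (distance 0.215; 189 against 5.73 CPM), followed by Gm5970 (0.255; 4.175 against 0.0171 CPM) and by Oasl2 (distance 0.276; 711 against 23.1 CPM), a member of the oligoadenylate synthetase-like family. The nearest to Tlr3 was Hsh2d (distance 0.142), which had 1.82 CPM in HO + Vehicle and was at 0 in HO + β-SITO, followed by Mlkl (0.165; 258 against 16.1 CPM), the executor of necroptosis, and Mmp3 (0.182; 1833 against 101 CPM), a matrix metalloproteinase. The nearest to Tlr1 were Tdrd7 (0.124), Trafd1 (0.142) and Orai2 (0.150), and to Tlr6 BC051226 (0.127), Tmem229b (0.142) and Mvp (0.149). Among the receptors that rose, the nearest to Tlr13 were Cd300c2 (0.217), Slc27a6 (0.231) and Cd84 (0.241), and to Tlr5 Cd37 (0.136), Fgfr2 (0.183) and Itga6 (0.190). For Gm5970 and Hsh2d the distance depends on the prior count of 2 added before the logarithm. The prior count also weighs on the profile of Tlr5, which had 9 to 12 counts in the HO + Vehicle libraries. The distances are a description only.

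The other genes of the pathway were read from lists, whose counts are to be set beside the 10.1% of all tested genes that were DEGs lower and the 12.8% that were DEGs higher. Of 7 accessory genes, 3 were DEGs lower (Lbp, Ly96 and Cd14) and 0 higher, with the same counts from DESeq2 and limma-voom. Without the fold cutoff all 7 passed, 4 lower and 3 higher, where 66.8% of all tested genes passed, and the median log2 fold change was -0.81. Cd180, which encodes RP105, a relative of the receptors, fell from 55.9 ± 0.909 to 31.95 ± 2.29 CPM (SD, n = 3; log2 fold change -0.81), while its partner Ly86, which encodes MD-1, had a log2 fold change of 0.57 (adjusted p = 3.98e-04). Hmgb1, a nuclear protein that acts as a danger signal once released, had 0.17 (adjusted p = 0.0325).

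Of 15 tested genes for folding, trafficking and processing of the endosomal receptors, 3 were DEGs lower and 2 higher, against 10.1% and 12.8% of all tested genes, and the median log2 fold change was 0.07. Unc93b1, which encodes the escort that brings the nucleic acid receptors to endosomes, fell from 171 ± 3.92 to 74.0 ± 3.06 CPM (SD, n = 3; log2 fold change -1.21, adjusted p = 4.81e-11). Among the 5 endosomal receptors 4 had higher values in each HO + β-SITO library, as did 34.8% of all tested genes, but only Tlr13 of these was a DEG. The summed endosomal level fell, from 247 to 89.1 CPM. Pld4, an endolysosomal nuclease that limits nucleic acid ligands, rose from 12.6 ± 0.763 to 51.3 ± 6.05 CPM (SD, n = 3; log2 fold change 2.03, adjusted p = 4.42e-11), while its relative Pld3 had 0.12 (adjusted p = 0.0655). Rnaset2b fell (-2.19), on few counts and with a near-identical copy, Rnaset2a, so its counts are uncertain. The other DEGs, named after their values were seen, were Hsp90b1 (-1.05), the chaperone of most Toll-like receptors, and Lgmn (1.04), a lysosomal protease that can process them. Hsp90b1 was not a DEG under library size only, upper quartile scaling or glmTreat, and Lgmn was not one with glmTreat. Ctsl (0.07) and Ctsk (-0.13), which encode cathepsins, did not pass.

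Among 18 adaptor and kinase genes 4 were DEGs lower and 1 was higher, against 10.1% and 12.8% of all tested genes, and the median log2 fold change was -0.22. Ikbke fell most (-2.82), from 111 ± 4.11 to 15.7 ± 0.911 CPM (SD, n = 3), followed by Myd88 (-1.67) and Tbk1 (-1.38), and Traf3 (-1.13), named after its value was seen, was the other. Traf3 was not a DEG under library size only, upper quartile scaling or glmTreat. IKKε and TBK1, the products of Ikbke and Tbk1, phosphorylate interferon regulatory factors. Ticam2, which encodes the bridge between TLR4 and TRIF and was named after its value was seen, was the DEG that was higher (1.18), from 1.73 ± 0.165 to 3.92 ± 1.18 CPM (SD, n = 3). It was no longer a DEG without T4 or with glmTreat, which asks for a change beyond 2-fold. Irak4 (-0.06), Ikbkg (-0.11) and Tab3 (-0.13) did not pass the test.

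Of 8 tested negative regulators 4 were DEGs lower and 2 higher, against 10.1% and 12.8% of all tested genes, and the median log2 fold change was -0.60. One of the 4, Cyld (-1.13), was not a DEG under library size only, upper quartile scaling or glmTreat. Tnfaip3, which encodes A20, a deubiquitinase that ends NF-κB signaling, fell from 237 ± 8.46 to 11.6 ± 1.45 CPM (SD, n = 3; log2 fold change -4.36), and Socs1 fell by 3.24 on the log2 scale. Nrros, whose product limits receptor surface levels and oxidant production, rose from 8.87 ± 0.554 to 35.2 ± 3.22 CPM (SD, n = 3; log2 fold change 1.99, adjusted p = 5.52e-11). Sigirr, an inhibitory member of the receptor superfamily, rose from 1.0 ± 0.431 to 2.16 ± 0.351 CPM (log2 fold change 1.10), and was not a DEG without V2, without T6 or with glmTreat. Tollip (-0.03) and Rnf216 (-0.08) did not pass.

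Of 14 tested output genes, chosen as textbook targets of the receptors, all 14 were DEGs lower, against 10.1% of all tested genes, with a median log2 fold change of -5.50, also with Il12b at its bound. They ranged from -12.16 for Ccl5 to -1.0035 for Cd80, which was not a DEG in 10 of 16 alternatives, leaving 13, while 6 of the 10 receptors were not DEGs lower. Stimuli other than Toll-like receptor ligands induce these genes too, and the list was chosen with results of these data known. Ifnb1 had at most 1 count in any library and was not tested.

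**Figure D5:**
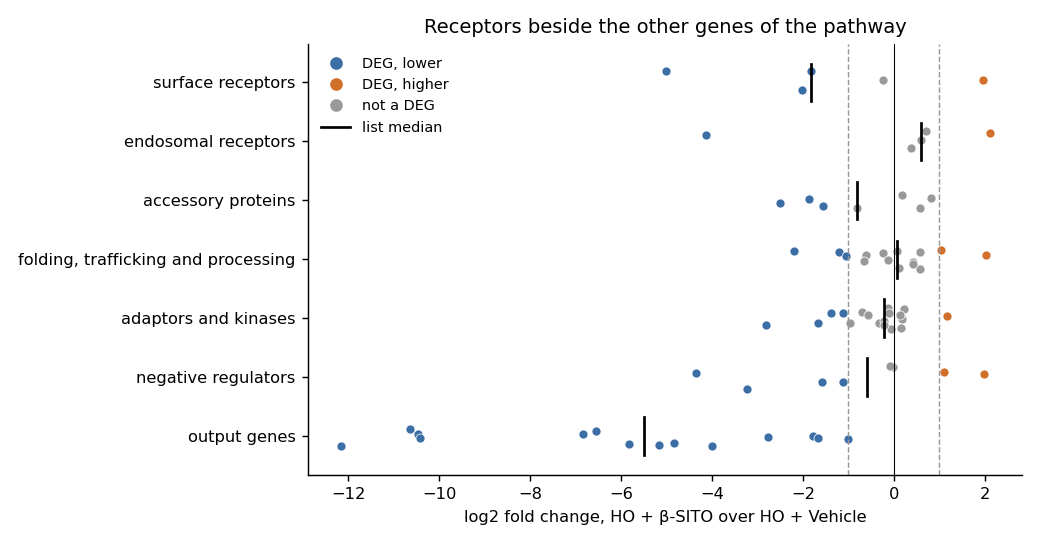
Log2 fold change of each tested gene of the receptor lists and of the other pathway lists, HO + β-SITO over HO + Vehicle, with DEGs coloured by direction, a bar at the median of each list and dashed lines at 2-fold. The output genes lie at or below -1.0035 with a median of -5.50, while the receptor lists hold DEGs on both sides of 0.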

How the data were processed

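Paired-end reads of the 6 libraries were, per the labels and the submitters' processing notes, checked with FastQC, aligned to GRCm39 with HISAT2 and counted per gene with featureCounts, and the authors deposited raw counts with no normalization. Versions, strand setting and counting options are not given in the sources used here, and the sources name different library kits. From the deposited counts, genes were filtered with filterByExpr, normalized with TMM and tested with edgeR's quasi-likelihood test (R 4.3.3, edgeR 4.0.16) with Benjamini-Hochberg adjustment over 14799 genes. The group was the only term. The study's methods name DESeq2, which was kept as an alternative. SE was the fold change (log2) over the square root of its F statistic. The 95% intervals used the total degrees of freedom of the fit, residual plus prior, the prior part being estimated across genes. Exonic lengths were the union of GENCODE vM21 exons, matched by gene identifier for 14639 tested genes. Alternatives used DESeq2 1.42.0, limma 3.58.1 (voom), glmTreat, other normalizations and low-count filters, the removal of mitochondrial genes and of each library. Scripts were tested on simulated counts. An exact permutation test of 3 against 3 libraries cannot go below 0.1, so single genes rest on the model across genes. Members, lists and the rule for named genes (all receptors, the 3 largest and 3 smallest changes of each list, direct partners, neighbours and nearest profiles) were chosen with earlier results of these data known. Reads shared by overlapping genes could not be checked.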

Additional observations from a re-analysis of the deposited data

How the results depend on the processing

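With each library left out the DEGs among all genes numbered 3467 to 3610, the receptors stayed at 4 DEGs lower and 2 higher, and the median log2 fold change was -1.87 to -1.73 for surface and 0.49 to 0.69 for endosomal receptors. Over the same fits 0 to 1 adaptor and kinase genes and 1 to 2 negative regulators were DEGs higher. Upper quartile normalization and library size only moved the median of all tested genes from -0.0073 to 0.14 in both cases, and with it the surface median to -1.68 in both and the endosomal median to 0.74 in both. No receptor that was a DEG changed direction or lost its call under any alternative. Without the fold cutoff 9892 genes passed, with 4 receptors higher, 3 accessory genes higher, 6 trafficking genes lower and 6 higher, and 10 adaptor and kinase genes lower and 4 higher, because the cutoff was lifted. With glmTreat, which asks for more than 2-fold, 1 trafficking gene, 0 adaptor and kinase genes and 1 negative regulator were higher, and 2442 genes were DEGs. Cd80 was not a DEG in 10 of 16 alternatives, which left 13 output genes lower. Hsp90b1, Traf3 and Cyld, one gene of a list each, were not DEGs under library size only, upper quartile scaling or glmTreat, and Lgmn was not one with glmTreat. No fold change of a receptor and neither receptor median changed direction, whereas the median of all tested genes, close to 0, changed sign. No paired analysis was possible because the groups share no replicate number. Depth limits Tlr5, with 9 to 58 counts, most.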
